A study of Mus musculus with 8 samples.

Results

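*Ihh*, *Pthlh* and *Fgf18*, 3 of the 67 target mRNAs, encode secreted signals of the growth plate and were taken by their rows in the tables of signals and of normalized values and followed through all 8 mouse strains. The tissue was formalin-fixed, paraffin-embedded knee joint from mice whose articular cartilage was cut to full thickness at 8 weeks of age. That is the age at surgery, and per the methods the joints were harvested weeks later. No uninjured joint was among the samples analysed here, so every value describes an operated joint. The labels name LG/J, MRL/MpJ and LGXSM-6 healers, LGXSM-5 and LGXSM-35 intermediate healers, and SM/J, C57BL/6J (spelled C57BL6/J in the labels) and LGXSM-33 non-healers. The LGXSM lines are recombinant inbred lines of a cross between LG/J and SM/J, and LG/J and MRL/MpJ share ancestry, so the 8 strains are not unrelated. Per the methods, sections of 3 to 4 mice stood for each strain, and bone, cartilage, meniscus, growth plate, capsule and synovium were scraped off together, so that fewer cells of a type and less RNA per cell cannot be told apart.

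In the growth plate these signals form a circuit. Indian hedgehog, the product of *Ihh*, is secreted by chondrocytes that are leaving the proliferating zone, and it keeps up the production of parathyroid hormone-related protein, the product of *Pthlh*, by cells near the end of the bone. That protein acts back on the column and delays the step to hypertrophy, after which the cells make type X collagen. Fibroblast growth factor 18, the product of *Fgf18*, signals through Fgf receptors on chondrocytes, restrains proliferation and hedgehog signalling in the growing plate, and stimulates matrix production in articular cartilage. Mice keep an open growth plate into adult life.

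The homogenates were read with the QuantiGene Plex assay, in which probes on coded beads capture each mRNA and branched DNA amplifies its signal. *Fgf18* belonged to the first panel, with 76 numbered signals, here called assay replicates, and *Ihh* and *Pthlh* to the second, with 78. In the second panel each strain had 9 assay replicates, or 12 for LGXSM-6 and LGXSM-33. In the first panel the numbers were the same except for LG/J and SM/J, which had 8. The normalized value is what is left of the log10 signal after a regression on the reference genes of the panel. It is given here on the log2 scale, where 0 is the level the reference genes predict. Markers of several of the tissues gave signals in all strains, while the lists held none for meniscus or capsule. For cartilage (*Acan*, *Col2a1*, *Comp*, *Mia1* and *Sox9*) the summed median signal ran from 2363 in SM/J to 13491 in LGXSM-6, for bone (*Bglap1* and *Col1a1*) from 18929 to 33486, for synovium (*Mmp3* and *Ddr2*) from 79.3 to 325, for osteoclasts and myeloid cells (*Mmp9* and *Ccl3*) from 178 to 801 and for fat (*Adipoq* and *Lep*) from 27 to 70.5. The hypertrophic marker *Col10a1*, type X collagen, had median signals from 33 in LGXSM-5 to 172 in LG/J. These marker signals are not normalized, so they do not compare tissue content between strains. In the first panel median *Actb* was 2635 in SM/J and 14509 in LGXSM-6. Median *Hprt1* was 72.8 and 323 there, and median *Gapdh* 13148 and 18668.

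The methods name both biological and technical replicates, and neither labels nor files say which signals are which. Consecutive signals of a strain were alike in runs of 3. Over the 67 targets the median share of the within-strain variance that lay between such runs was 74.5%. It was 86.3% for *Fgf18*, 69.3% for *Ihh* and 54.5% for *Pthlh*. The paper used 3 to 4 mice per strain and, in its discussion, describes 3 repeated measures of single individuals. Runs of 3 signals match that description, except in LG/J and SM/J of the first panel, but no label ties a run to a mouse. Tests over assay replicates treat the 3 signals of a run as independent. If the runs are such repeats, these tests count measures rather than mice, and their p-values are too small. Averaged runs are then the nearer to a test over mice. The strain effects and strain pairs of the 3 mRNAs are therefore given a second time with every run averaged to 1 value, which left 3 runs per strain, or 4 for LGXSM-6 and LGXSM-33. *Fgf18* and the other targets of the first panel have no value on that basis in LG/J and SM/J, which had 8 signals there.

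All 3 mRNAs gave weak signals. *Ihh* ranged from 4 to 31 with a median of 11, *Pthlh* from 2 to 13 with a median of 5.25, and *Fgf18* from 5 to 65 with a median of 23.5, while the median over the 67 targets was 44.3. Signals of different probe sets do not rank mRNAs by abundance, but they set the precision. At the median signal, 1 signal unit was worth 0.25 on the log2 scale for *Pthlh*, 0.13 for *Ihh* and 0.06 for *Fgf18*. Of the *Pthlh* signals 74 of 78 were under 10, against 27 of 78 for *Ihh* and 8 of 76 for *Fgf18*. The blank signal of the assay is not given in the sources used here, so how far these signals stood above it is unknown.

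**Figure D1:**
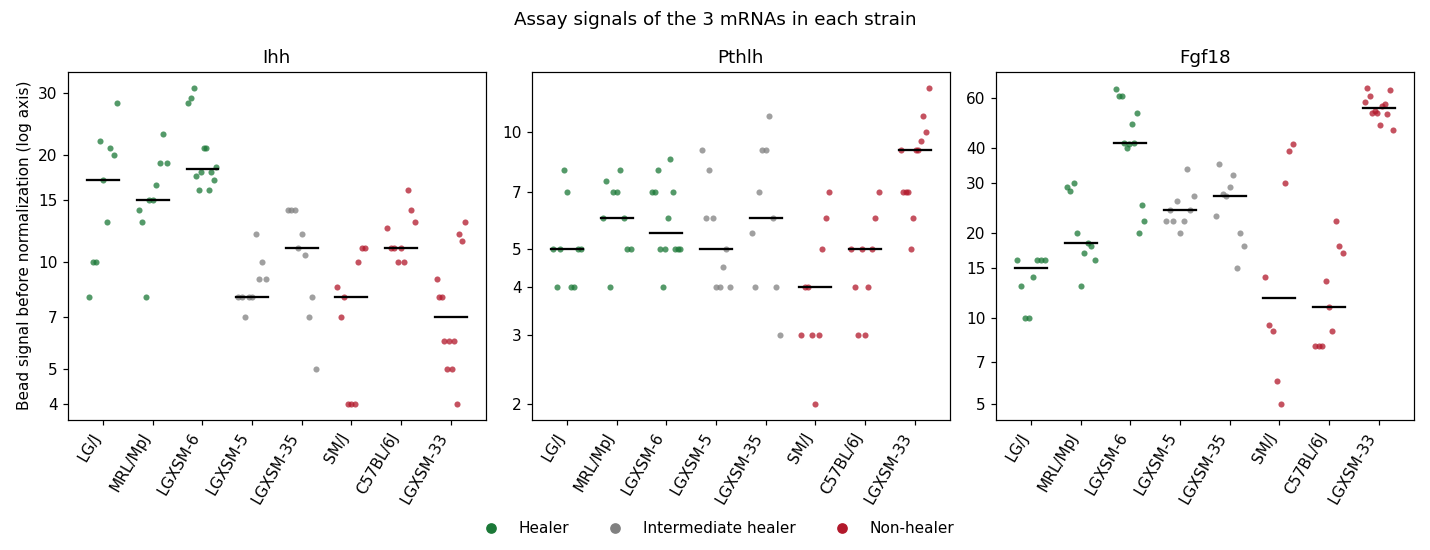
Bead signals before normalization (log axis) of *Ihh*, *Pthlh* and *Fgf18*, 1 point per assay replicate and a bar at the median, for 8 strains coloured by healing label. *Fgf18* in LGXSM-33 lay between 46 and 65, above every signal of the other strains except LGXSM-6, and *Pthlh* stayed between 2 and 13 throughout.

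*Ihh*, the hedgehog signal, had its highest median signals in the strains labelled healers. In LG/J its signals ran from 8 to 28 with a median of 17, in LGXSM-6 from 16 to 31 with a median of 18.3, and in MRL/MpJ from 8 to 23 with a median of 15. These are the 3 healer strains, and LGXSM-6 had the highest median of all, above LG/J. In C57BL/6J the signals ran from 10 to 16 with a median of 11, and in LGXSM-35 from 5 to 14, also with a median of 11. In SM/J they ran from 4 to 11 with a median of 8, in LGXSM-5 from 7 to 12 with a median of 8, and in LGXSM-33 from 4 to 13 with a median of 7. Every signal of LGXSM-6 lay above every signal of SM/J, LGXSM-5, LGXSM-33 and LGXSM-35, and its lowest equalled the highest of C57BL/6J.

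After normalization *Ihh* was highest in LG/J and lowest in 3 of the 4 recombinant lines. The mean was 0.48 ± 0.49 (SD, n = 9 assay replicates) in LG/J, 0.22 ± 0.38 (n = 12) in LGXSM-6 and 0.09 ± 0.24 (n = 9) in MRL/MpJ. C57BL/6J followed at 0.02 ± 0.14 and SM/J at 0.01 ± 0.36 (n = 9 each). The lowest means were -0.32 ± 0.19 (n = 12) in LGXSM-33, -0.49 ± 0.18 (n = 9) in LGXSM-35 and -0.56 ± 0.27 (n = 9) in LGXSM-5. The range over strains was thus 1.04 on the log2 scale, or 2.05-fold, and the strain effect passed limma's F test with an adjusted p of 2.11e-10. That test called 82.1% of the 67 targets, so that passing it was common, and *Ihh* was at rank 8 by F. With runs averaged 14.9% of the targets were called, and *Ihh* remained among them with limma's adjusted p at 0.00818.

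In the order of the strain means of *Ihh*, the only neighbours that differed at an adjusted p under 0.05 were SM/J and LGXSM-33, by 0.33 (SE 0.13, limma's adjusted p = 0.0469). Above this step stood LG/J, LGXSM-6, MRL/MpJ, C57BL/6J and SM/J, and below it LGXSM-33, LGXSM-35 and LGXSM-5. All 15 pairs across the step were called, with differences from 0.33 to 1.04. Of these, 13 were called with the residuals recomputed, as a ratio, with an offset of 10 on the signal or with the replicate block, and 12 with signals under 10 left out. Within the upper group LG/J was also above MRL/MpJ by 0.39, above C57BL/6J by 0.45 and above SM/J by 0.47 (limma's adjusted p = 0.0290, 0.00974 and 0.00814). In all, 18 of 28 pairs of *Ihh* were called, or 64.3%, beside 29.5% of the pairs over all targets. Relative to the median target, the mean of LGXSM-5, LGXSM-33 and LGXSM-35 was below that of the other strains by a difference of -0.62, and by -0.83 as a ratio to the reference genes and -0.81 without normalization. Without normalization 12 of the 15 single pairs kept their direction and 10 were called, and as a ratio LG/J no longer exceeded C57BL/6J, with a difference of -0.04.

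Averaging the runs left 4 of the 28 *Ihh* pairs called, beside 4.42% over all targets: LG/J against LGXSM-5, LGXSM-35 and LGXSM-33, and LGXSM-6 against LGXSM-5 (limma's adjusted p = 0.00585, 0.00986, 0.0249 and 0.0296). The run means show where the spread lay. In LG/J they were -0.08, 0.57 and 0.94, and in LGXSM-6 they were 0.71, 0.34, -0.29 and 0.10. In LGXSM-35 they lay between -0.57 and -0.43 and in LGXSM-33 between -0.42 and -0.19. The spans of the run means were widest in LG/J and LGXSM-6, at 1.02 and 1.00, followed by 0.70 in SM/J, 0.48 in LGXSM-5, the lowest strain, and 0.42 in MRL/MpJ. They were 0.23 in LGXSM-33, 0.14 in LGXSM-35 and 0.08 in C57BL/6J.

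**Figure D2:**
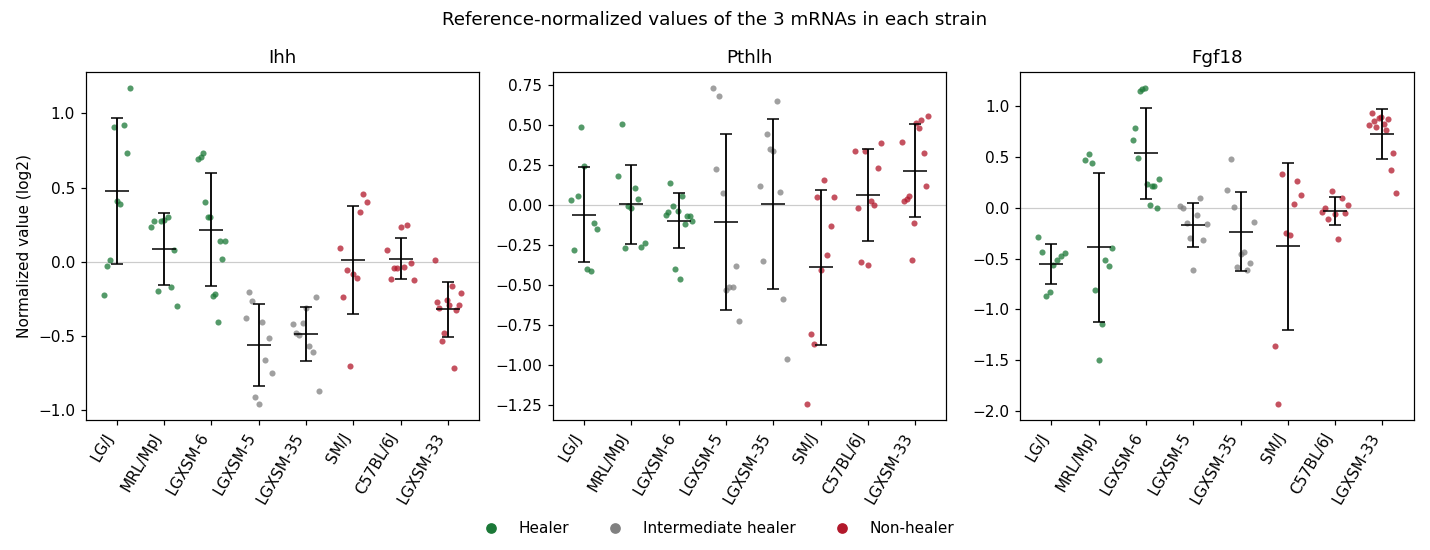
Normalized values (log2) of *Ihh*, *Pthlh* and *Fgf18*, 1 point per assay replicate in signal order, with the mean and SD of each strain in black. For *Ihh* the means of LGXSM-5, LGXSM-35 and LGXSM-33 were the lowest, at -0.56, -0.49 and -0.32, and for *Fgf18* LGXSM-33 and LGXSM-6 were the highest, at 0.72 and 0.53.

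*Pthlh*, whose protein holds chondrocytes back from hypertrophy, differed least between strains. Its signals ran from 5 to 13 with a median of 9 in LGXSM-33, from 3 to 11 with a median of 6 in LGXSM-35, and from 4 to 8 with a median of 6 in MRL/MpJ. They ran from 4 to 8.5 with a median of 5.5 in LGXSM-6 and from 2 to 7 with a median of 4 in SM/J. In LG/J (4 to 8), C57BL/6J (3 to 7) and LGXSM-5 (4 to 9) the median was 5. The ranges of all 8 strains overlapped.

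The normalized mean of *Pthlh* was highest in LGXSM-33 at 0.21 ± 0.29 (SD, n = 12) and lowest in SM/J at -0.39 ± 0.48 (n = 9). The other means lay between -0.11 in LGXSM-5 and 0.06 in C57BL/6J. The range was 0.60, and limma's F test gave an adjusted p of 0.0448, at rank 55 of 67. The SD of the strain means, 0.17, was below the pooled SD within strains, 0.37, and below the SD within runs, 0.27. No neighbours in the order differed. LGXSM-33 was above SM/J by 0.60 (SE 0.16, limma's adjusted p = 0.00220) and C57BL/6J above SM/J by 0.45 (SE 0.17, adjusted p = 0.0365), which made 2 called pairs of 28. As a ratio to the reference genes both differences turned sign, at -0.12 and -0.17, and neither was called.

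With runs averaged, 0 of the 28 pairs of *Pthlh* were called by limma (1 at an unadjusted p under 0.05) and its adjusted p of the strain effect was 0.586. The low mean of SM/J came from its first run, at -0.97, beside -0.07 and -0.13 in its other runs. LGXSM-5 had a run at 0.54 and others at -0.32 and -0.54, and LGXSM-35 had runs at 0.07, 0.44 and -0.49. Within both of these lines the runs thus spread further than the 8 strain means did, over 0.60. The same held for SM/J and LGXSM-33, the strains at the ends, with spans of 0.90 and 0.64.

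*Fgf18*, the growth factor, was set apart by 2 sister lines that carry opposite healing labels. In LGXSM-33, a non-healer, its signals ran from 46 to 65 with a median of 55, and in LGXSM-6, a healer, from 20 to 64.5 with a median of 41.5. Those of LGXSM-35 ran from 15 to 35 (median 27) and those of LGXSM-5 from 20 to 33.5 (median 24). In MRL/MpJ they ran from 13 to 30 (median 18.5), in LG/J from 10 to 16 (median 15), in C57BL/6J from 8 to 22 (median 11) and in SM/J from 5 to 41 (median 11.8). The lowest signal of LGXSM-33 was above the highest of every strain but LGXSM-6.

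Normalized *Fgf18* averaged 0.72 ± 0.24 (SD, n = 12) in LGXSM-33 and 0.53 ± 0.45 (n = 12) in LGXSM-6. The next strain, C57BL/6J, stood at -0.03 ± 0.13 (n = 9), followed by LGXSM-5 at -0.17 ± 0.22 (n = 9) and LGXSM-35 at -0.23 ± 0.39 (n = 9). The lowest were SM/J at -0.38 ± 0.82 (n = 8), MRL/MpJ at -0.39 ± 0.73 (n = 9) and LG/J at -0.55 ± 0.20 (n = 8). The range was 1.28, or 2.42-fold between LGXSM-33 and LG/J, with an adjusted p of 1.33e-08 by limma's F test. Between neighbours, LGXSM-6 and C57BL/6J differed, by 0.57 (SE 0.20, limma's adjusted p = 0.0231), and no others did.

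LGXSM-33 was above each of the 6 strains other than LGXSM-6, by 0.76 to 1.28, and LGXSM-6 was above each of the same 6, by 0.57 to 1.09. These 12 pairs were all the called pairs of *Fgf18* among 28. LGXSM-33 and LGXSM-6 themselves differed by 0.19 (SE 0.18, limma's adjusted p = 0.456). That depended on the scaling, since as a ratio to the reference genes LGXSM-6 minus LGXSM-33 was -1.46 (adjusted p = 4.37e-06). Normalized assay replicates of LG/J, which lay between -0.87 and -0.29, did not overlap those of LGXSM-6, between 0.00 and 1.18, nor those of LGXSM-33, between 0.15 and 0.93.

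The 2 lines were not equally firm. Scaled as a ratio to the reference genes, LGXSM-33 stayed above the 6 other strains, by 0.49 to 1.96, with 5 of the 6 pairs called, whereas LGXSM-6 was above only 4 of them, by differences that ran from -0.98 to 0.49 with none called. Without normalization both lines were above all 6 with every pair called, LGXSM-33 by 1.19 to 2.22 and LGXSM-6 by 0.73 to 1.77. Relative to the median target, whose own shift depends on the scaling, the mean difference from those 6 strains was 0.85 for LGXSM-33 and 0.65 for LGXSM-6 as deposited, 1.52 and 0.17 as a ratio, and 1.48 and 0.32 without normalization. LGXSM-6 had the highest median signals of all reference genes, 14509 for *Actb* against 4230 in LGXSM-33, and 323 against 99.5 for *Hprt1* in the first panel. With runs averaged over the 6 strains that could be used, the strain effect of *Fgf18* missed the threshold (limma's adjusted p = 0.0534) and 0 of 15 pairs were called (7 at an unadjusted p under 0.05), the nearest being LGXSM-33 against MRL/MpJ at an adjusted p of 0.0505. Run means were 0.87, 0.86, 0.82 and 0.35 in LGXSM-33 and 0.65, 1.17, 0.16 and 0.17 in LGXSM-6. In MRL/MpJ they were 0.48, -1.15 and -0.50, a span of 1.63.

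**Figure D3:**
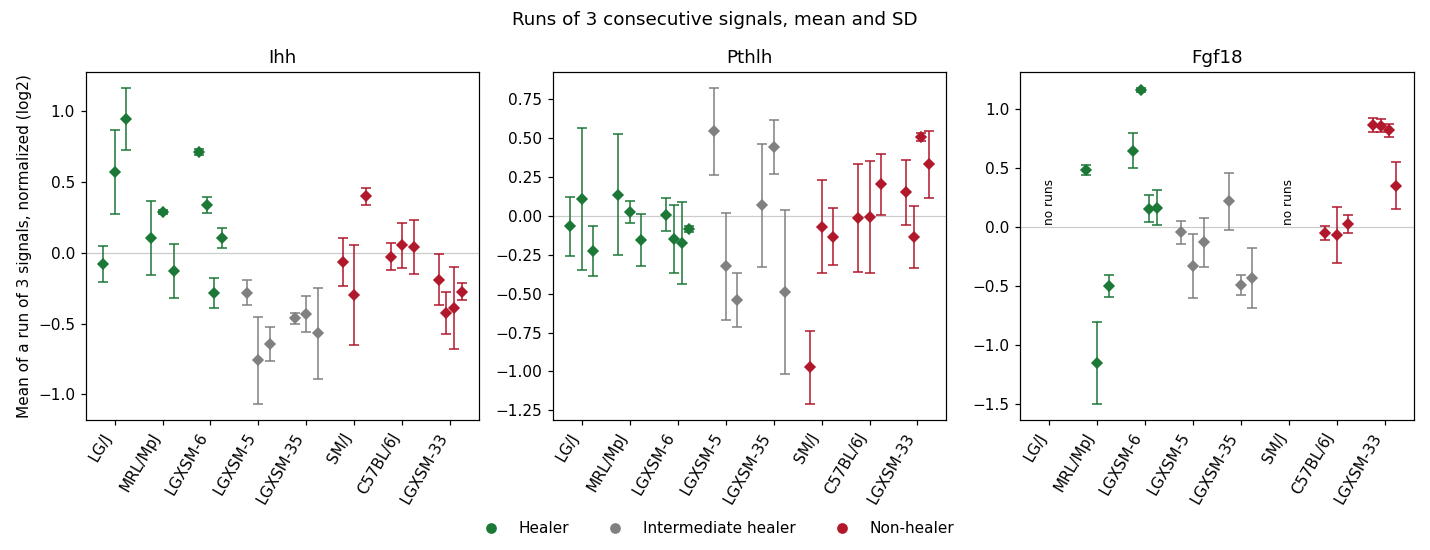
Means of runs of 3 consecutive signals (diamonds) with their SD (bars), normalized, log2, for each strain; *Fgf18* in LG/J and SM/J has no runs. The *Ihh* runs of LGXSM-35 lay between -0.57 and -0.43 while those of LG/J reached from -0.08 to 0.94, and the *Fgf18* runs of MRL/MpJ spanned 1.63.

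The lines of the cross can be set against the strains they came from. For *Ihh*, LGXSM-6 fell between LG/J and SM/J, while LGXSM-33, LGXSM-35 and LGXSM-5 fell below SM/J, the lower parent, by 0.33, 0.50 and 0.57 (limma's adjusted p = 0.0469, 0.00418 and 0.000947). For *Fgf18* all 4 lines were above SM/J, here the higher parent, on the deposited values. The distance was 0.15 for LGXSM-35 and 0.21 for LGXSM-5, neither called, 0.91 for LGXSM-6 (adjusted p = 0.000304) and 1.10 for LGXSM-33 (adjusted p = 1.52e-05). Without 3 SM/J signals of the first panel with low *Gapdh* (1471 to 1891, beside 11336 to 18843), SM/J was the lower parent. LGXSM-33 then exceeded SM/J by 1.29, and LG/J by 1.28. As a ratio to the reference genes LGXSM-33 alone stayed above SM/J, by 0.49 (adjusted p = 0.180), and LGXSM-5, LGXSM-6 and LGXSM-35 lay below it, by differences of -0.84, -0.98 and -1.14 (adjusted p = 0.0234, 0.00527 and 0.00216). For *Ihh* LGXSM-33, LGXSM-35 and LGXSM-5 also lay below SM/J as a ratio (-1.16, -0.89 and -0.89), and so did LGXSM-6, by a difference of -0.32 that was not called. For *Pthlh* 2 lines fell between the parents, and LGXSM-33 and LGXSM-35 were above LG/J, by 0.27 and 0.07, neither called. As a ratio LGXSM-33 fell between the parents and the other lines lay below both. LGXSM-6 was then called against LG/J (-0.87, adjusted p = 0.0138) and SM/J (-1.26, adjusted p = 0.000348), and LGXSM-35 against SM/J (-0.79, adjusted p = 0.0377). With runs averaged, none of the 3 *Ihh* lines was separate from SM/J (limma's adjusted p = 0.484, 0.259 and 0.184), and the *Fgf18* comparison with the parents could not be made.

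**Figure D4:**
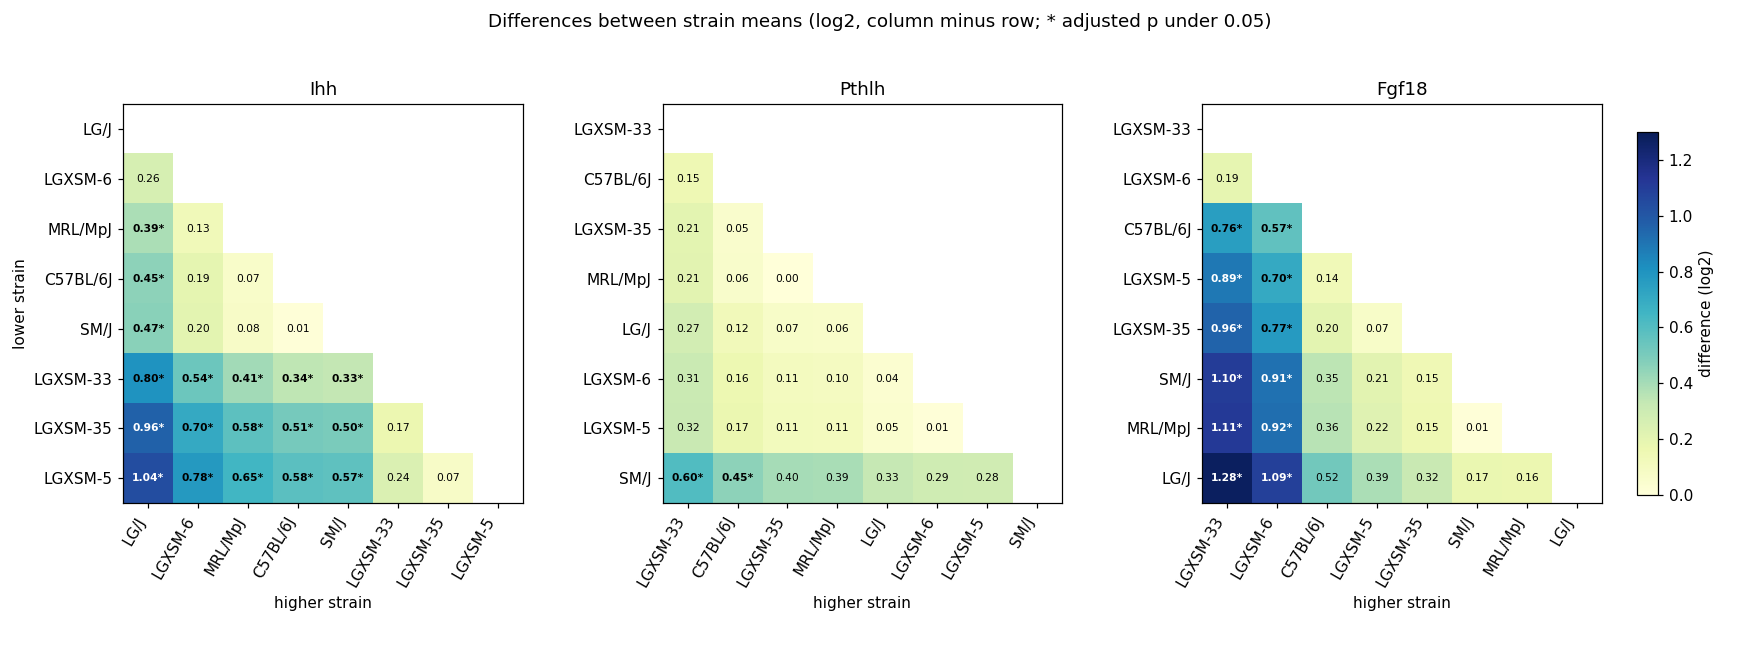
Differences between strain means (log2) for the 28 strain pairs of *Ihh*, *Pthlh* and *Fgf18*, column strain minus row strain, with strains ordered from high to low in each panel and an asterisk where limma's adjusted p was under 0.05. The called pairs form a block of 15 for *Ihh* between 5 high and 3 low strains, beside 3 more of LG/J against MRL/MpJ, C57BL/6J and SM/J, and 2 columns of 6 for *Fgf18*, with 2 single pairs for *Pthlh*.

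Each of 3 pairs of a healer and a non-healer was looked at on its own. Between the parental strains, *Ihh* was higher in LG/J by 0.47 (SE 0.14, limma's adjusted p = 0.00814), *Pthlh* was higher there by 0.33 (SE 0.17, adjusted p = 0.142) and *Fgf18* was lower there by a difference of -0.17 (SE 0.22, adjusted p = 0.598). As a ratio to the reference genes the *Fgf18* difference was -1.24 and called (adjusted p = 0.00118), and that of *Pthlh* turned sign, to -0.39 (adjusted p = 0.337). Over all targets this pair had 28.4% called. Part of the *Ihh* difference rested on 3 consecutive SM/J signals with *Gapdh* between 346 and 497, beside 3091 to 4577 in the others of that strain. Without them it was 0.31 (adjusted p = 0.112), and with runs averaged the adjusted p was 0.301. It was also not called as a ratio, at 0.35 (adjusted p = 0.260), with signals under 10 left out, at 0.17 (adjusted p = 0.530), or without replicate 4, at 0.32 (adjusted p = 0.0898). Without those low-*Gapdh* signals *Pthlh* of SM/J lay 0.61 instead of 0.45 below C57BL/6J, and 0.77 instead of 0.60 below LGXSM-33. The *Pthlh* difference of LG/J and SM/J was then wider too. Without the low-*Gapdh* SM/J signals of the first panel the *Fgf18* difference turned sign, with SM/J below LG/J.

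Between MRL/MpJ and C57BL/6J, where 17.9% of the targets were called, none of the 3 was. *Ihh* was higher in MRL/MpJ by 0.07 (SE 0.14), *Pthlh* was higher in C57BL/6J by 0.06 (SE 0.17) and *Fgf18* higher in C57BL/6J by 0.36 (SE 0.21), with limma's adjusted p at 0.764, 0.830 and 0.201. Without normalization the *Fgf18* difference turned, to -0.77 for C57BL/6J minus MRL/MpJ, and was called (adjusted p = 0.0110). Between LGXSM-6 and LGXSM-33, where 22.4% were called, *Ihh* was higher in LGXSM-6 by 0.54 (SE 0.12, adjusted p = 0.000358), a call lost with runs averaged (adjusted p = 0.137). *Pthlh* and *Fgf18* differed there by -0.31 (SE 0.15, adjusted p = 0.104) and -0.19 (SE 0.18, adjusted p = 0.456), LGXSM-6 minus LGXSM-33. Both were called as a ratio to the reference genes, *Pthlh* at -1.13 (adjusted p = 0.000463) and *Fgf18* at the -1.46 given above, and *Pthlh* also without normalization, at -0.49 (adjusted p = 0.0218).

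On the deposited values *Ihh* was thus above in the healer of all 3 pairs, and called in 2. As a ratio to the reference genes it was higher in C57BL/6J than in MRL/MpJ, by 0.73 (adjusted p = 0.0141). Whether the pairs differed from each other was tested by limma's contrasts of differences, of which 14.4% were called over all targets. For *Ihh* the gap between the parental pair and the MRL/MpJ pair was 0.40 (SE 0.20, adjusted p = 0.183), and that between the MRL/MpJ pair and the pair of lines was -0.47 (SE 0.19, adjusted p = 0.0871). For *Fgf18* the widest such gap was 0.18 (SE 0.31, adjusted p = 0.721). For *Pthlh* the parental pair and the pair of lines ran opposite ways on the deposited values, though not as a ratio (-0.39 and -1.13), and their gap on the deposited values of 0.64 (SE 0.23) was called at an adjusted p of 0.0412, or 0.314 with runs averaged.

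Healing is a property of the strain, so healers and non-healers were compared over strain means, 3 against 3, where the exact permutation test has 20 splits and cannot go below 0.10. *Ihh* averaged 0.26 ± 0.20 (SD, n = 3 strains) in healers and -0.10 ± 0.19 (n = 3) in non-healers, a difference of 0.36 with a two-sided exact p of 0.10. The strain means did not overlap, which held for 9 of the 67 targets, or 13.4%. The closest strains were MRL/MpJ at 0.09 and C57BL/6J at 0.02, closer than the spread of either. The 2 intermediate healers, with a mean of -0.52, were below all of the non-healers on the deposited values, so *Ihh* did not follow the 3 labels in order. Neither LGXSM-5 nor LGXSM-35 was called against LGXSM-33 (limma's adjusted p = 0.167 and 0.358). As a ratio LGXSM-33, at -6.46, lay below both, at -6.19 each, while SM/J, at -5.30, stayed above them. The difference of healers and non-healers was 0.15 as a ratio to the reference genes (exact p = 0.90), and 0.99 without normalization (exact p = 0.10). The median target moved by 0.03, -0.26 and 0.68 under the deposited values, the ratio and no normalization, and relative to it *Ihh* was higher in healers by 0.33, 0.42 and 0.32. Without the low-*Gapdh* signals of SM/J the groups overlapped (exact p = 0.20).

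*Pthlh* averaged -0.05 ± 0.05 (n = 3 strains) in healers and -0.04 ± 0.31 (n = 3) in non-healers, a difference of -0.01 (exact p = 1). *Fgf18* averaged -0.14 ± 0.59 and 0.11 ± 0.56, a difference of -0.24 (exact p = 0.50). As a ratio to the reference genes the differences were -0.73 (exact p = 0.10) and -0.98 (exact p = 0.30), or -0.46 and -0.71 relative to the median target. Both groups held 1 of the 2 high lines of *Fgf18*, and without LGXSM-33 the sign turned, to 0.07.

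Over the 8 strain means no relation among the 3 signals passed the exact permutation test. Pearson's r was -0.21 between *Ihh* and *Pthlh* (exact p = 0.644; Spearman's rho -0.05, exact p = 0.935) and -0.21 between *Ihh* and *Fgf18* (exact p = 0.603; rho -0.33, exact p = 0.428). Between *Pthlh* and *Fgf18* r was 0.49 (exact p = 0.234; rho 0.38, exact p = 0.360). With the 2 most distant strains in the first-named mRNA left out, r was -0.38, -0.59 and -0.26. Adjusted over the 195 relations computed, p was 0.915, 0.904 and 0.689. Without normalization *Pthlh* and *Fgf18* gave r = 0.85 (exact p = 0.00578), with LGXSM-33 highest in both.

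**Figure D5:**
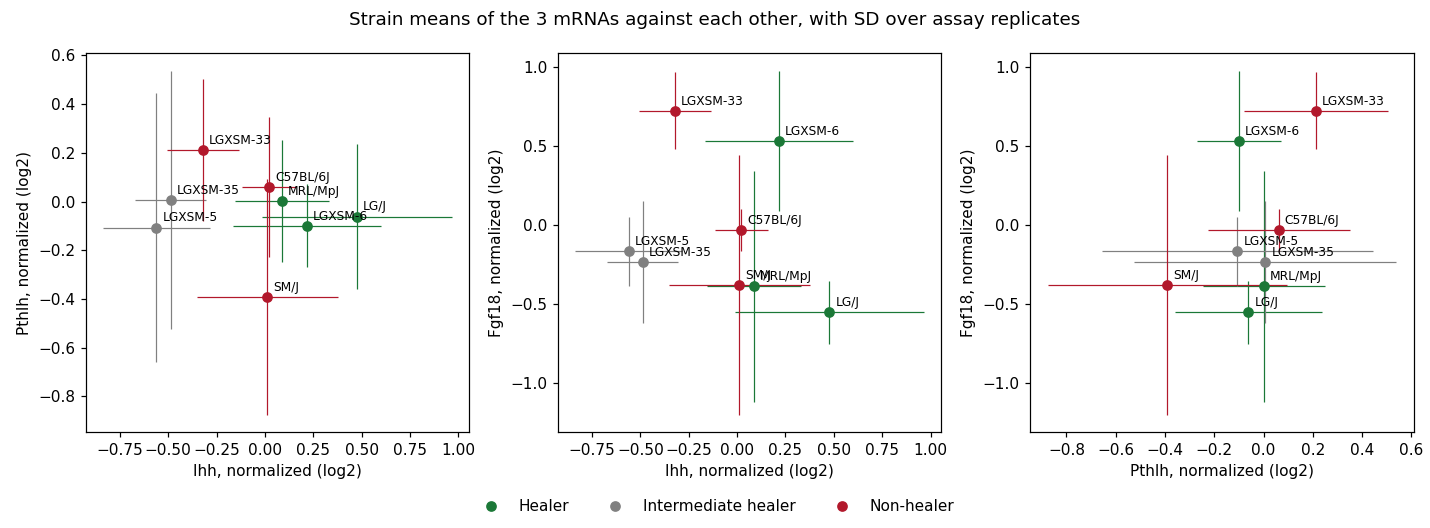
Strain means of the 3 mRNAs plotted against each other (normalized, log2), with SD over assay replicates as bars and strains coloured by healing label. LGXSM-33 combined low *Ihh* (-0.32) with the highest *Fgf18* (0.72) and *Pthlh* (0.21), and LG/J combined the highest *Ihh* (0.48) with the lowest *Fgf18* (-0.55).

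Within strains, *Ihh* and *Pthlh* could be compared well by well, since both were in the second panel. Over 78 assay replicates, with each strain's mean removed, r was 0.19, which placed *Pthlh* at rank 9 of the 33 other targets of the panel by likeness to *Ihh*. These points share wells and reference genes and are a description.

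The targets whose strain means were most like those of *Ihh* were *Runx2*, a transcription factor of osteoblasts and hypertrophic chondrocytes (r = 0.85), *Col10a1* (r = 0.84) and *Mia1*, a protein secreted by chondrocytes (r = 0.78). All 3 were measured in the other panel, so they share homogenates with *Ihh* but not wells. Exact p was 0.00610, 0.00766 and 0.0266, and after adjustment over the 195 relations 0.297, 0.299 and 0.535, with rho at 0.81, 0.74 and 0.74 (exact p = 0.0218, 0.0458 and 0.0458; adjusted 0.670 for each). With LGXSM-5 and LGXSM-35 left out, the lines most distant from the median in *Ihh*, r was 0.81, 0.67 and 0.66. *Runx2* was highest in LG/J at 0.40 ± 0.18 (SD, n = 8) and in LGXSM-6 at 0.22 ± 0.21 (n = 12), and lowest in LGXSM-35 at -0.24 ± 0.14 (n = 9). *Col10a1* was highest in LG/J at 0.65 ± 1.01 (n = 8) and lowest in LGXSM-5 at -1.12 ± 0.95 (n = 9), and 96.9% of its within-strain variance lay between runs.

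For *Fgf18* the closest were *Tfap2a* (r = 0.89), *Nfkb1* (r = 0.89), which encodes a subunit of NF-kappa B, and *Gdf5* (r = 0.85), a growth factor of joint formation. Their exact p was 0.0167, 0.00290 and 0.00419 and their adjusted p 0.535, 0.297 and 0.297, with rho at 0.50, 0.79 and 0.71 (exact p = 0.216, 0.0279 and 0.0576; adjusted 0.727, 0.670 and 0.670). Without LGXSM-6 and LGXSM-33, r was 0.02, 0.63 and 0.58, so that the likeness to *Tfap2a* rested on those lines. For *Pthlh* the closest were *Stat6* (r = 0.88), *Gdf5* (r = 0.80) and *Il4* (r = 0.67). Exact p was 0.00521, 0.0289 and 0.0732 and adjusted p 0.297, 0.535 and 0.591, with rho at 0.74, 0.55 and 0.24 (exact p = 0.0458, 0.171 and 0.582; adjusted 0.670, 0.680 and 0.847). Without SM/J and LGXSM-33, r was 0.43, 0.07 and -0.29, so these rested on the 2 strains at the ends. Signals of *Gdf5*, *Tfap2a* and *Il4* were weak, with medians of 9, 12 and 11. Of the 195 relations 13 had p under 0.05 before adjustment and 0 after it, and 7 and 0 by Spearman's rho.

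The other mRNAs of the growth plate were read in the same pairs, by tests over assay replicates. Most of them belong to the first panel, where LG/J and SM/J have no averaged runs. Between LG/J and LGXSM-5, the pair at the ends of the *Ihh* range and taken for that reason, 5 of the 6 mRNAs of cartilage matrix and its regulators were higher in LG/J and none lower (median difference 0.90), as were 3 of the 4 of the hypertrophic zone (median 0.64). Over all 67 targets 16 were higher and 9 lower, with a median of 0.09. *Col10a1* differed by 1.77 (SE 0.40, limma's adjusted p = 0.000393), though with runs averaged its strain effect over 6 strains was not called (adjusted p = 0.411). The differences were 1.22 for *Mia1*, 1.39 for *Acan*, which encodes aggrecan, and 0.99 for *Col2a1*, which encodes type II collagen. Among markers of other cells, 3 of 8 were called: *Adipoq* of fat was lower in LG/J by a difference of -1.26, *Mmp9* of osteoclasts was higher by 1.09 and *Bglap1* of bone by 0.83. With runs averaged *Adipoq* and *Mmp9* remained called (adjusted p = 0.0174 and 0.00147) and *Bglap1* did not (adjusted p = 0.107). The other markers were not called, with differences of -0.37 for *Lep*, -0.45 for *Ccl3*, 0.19 for *Col1a1*, -0.03 for *Mmp3* and 0.32 for *Ddr2*. The part that these cells have in the *Ihh* difference was not tested.

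In the parental pair, 2 of 6 cartilage mRNAs (*Acan* and *Mia1*) and 2 of 4 of the hypertrophic zone (*Runx2* and the collagenase *Mmp13*) were higher in LG/J and none lower, with medians of 0.46 and 0.39 beside 0.05 over all targets, of which 14 were higher and 5 lower. LGXSM-6 against LGXSM-33 gave the same counts (*Col2a1* and *Mia1*, *Runx2* and *Mmp13*), with medians of 0.17 and 0.35 beside 0.02 over all targets, of which 9 were higher and 6 lower. With runs averaged, *Mia1* remained called (adjusted p = 0.0304) and *Col2a1*, *Runx2* and *Mmp13* did not (adjusted p = 0.229, 0.472 and 0.472). In MRL/MpJ against C57BL/6J, where *Ihh* was not called, 0 of 6 and 1 of 4 (*Mmp13*, lost with runs averaged at an adjusted p of 0.557) were higher, with medians of 0.12 and 0.11 beside 0.07 over all targets, of which 8 were higher and 4 lower. Of the 8 markers of other cells, 2 were called in LG/J against SM/J, *Adipoq* at -1.09 and *Mmp9* at 0.61. With runs averaged *Adipoq* remained called (adjusted p = 0.0498) and *Mmp9* did not (adjusted p = 0.0868). The others there were not, with -0.33 for *Lep*, -0.55 for *Ccl3*, 0.01 for *Bglap1*, 0.02 for *Col1a1*, 0.66 for *Mmp3* and 0.27 for *Ddr2*. In LGXSM-6 against LGXSM-33 only *Bglap1* was called, at 0.75 (adjusted p = 0.0899 with runs averaged), and the others lay between -0.33 (*Lep*) and 0.12 (*Mmp3*), with *Col1a1*, the other bone marker, at -0.05. In MRL/MpJ against C57BL/6J 4 were called, *Bglap1* at -0.83, *Col1a1* at -0.36, *Mmp9* at -0.50 and *Mmp3*, of synovial fibroblasts, at 1.47, and none of them with runs averaged (adjusted p = 0.107, 0.525, 0.189 and 0.379). The others there were *Ccl3* at -0.65, *Lep* at -0.10, *Ddr2* at -0.02 and *Adipoq* at 0.16. Their part in the *Ihh* differences was not tested.

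For *Fgf18* the pair at the ends was LGXSM-33 and LG/J, with all SM/J signals used. There the growth factor list ran the same way, with *Gdf5* higher in LGXSM-33 by 1.07, the insulin-like growth factor *Igf1* by 1.06 and *Tgfb1* by 0.35, which made 3 of 4 higher and none lower (median 0.70, beside 0.12 over all targets with 18 higher and 9 lower). *Gdf5* was weak, with 42 of 76 signals under 10 and medians of 5.5 in LG/J and 14 in LGXSM-33. With runs averaged over the 6 usable strains, limma's F test called *Igf1* (adjusted p = 0.0111). It did not call *Gdf5* or *Tgfb1* (adjusted p = 0.452 and 0.247). The hypertrophic zone had 0 higher and 2 lower (*Mmp13* and *Runx2*, median -0.45), and the cartilage list 0 higher and 1 lower of 6, *Mia1* with a difference of -0.80 (limma's adjusted p = 1.6e-05), with a median of 0.02. Of the 8 markers of other cells *Adipoq* was higher in LGXSM-33 by 1.16 and *Ddr2*, of fibroblasts, by 0.49, and *Bglap1* was lower by a difference of -0.38. With runs averaged *Adipoq* remained called (adjusted p = 0.0202), *Bglap1* did not (adjusted p = 0.548), and *Ddr2* had no value. The others were not called, with 0.34 for *Lep*, 0.87 for *Mmp3*, -0.25 for *Mmp9*, 0.11 for *Ccl3* and 0.16 for *Col1a1*. Their part in the *Fgf18* difference was not tested. Between the ends of the *Pthlh* range, LGXSM-33 and SM/J, 3 of 6 cartilage mRNAs and 2 of 4 growth factors were higher in LGXSM-33, with medians of 0.35 and 0.42 beside 0.14 over all targets, of which 21 were higher and 3 lower, and of the hypertrophic zone only *Vegfa* was called, lower by a difference of -0.30. With runs averaged neither *Vegfa* (adjusted p = 0.440) nor *Sox5*, 1 of those 3 cartilage mRNAs, was called (adjusted p = 0.426), and the other called members of these lists had no value. Of the 8 markers *Mmp3* was higher there by 1.52, *Ddr2* by 0.76 and *Mmp9* by 0.36, the last not called with runs averaged (adjusted p = 0.352). The others were not called, with -0.44 for *Ccl3*, -0.37 for *Bglap1*, 0.18 for *Col1a1*, 0.07 for *Adipoq* and 0.01 for *Lep*. Their part in the *Pthlh* difference was not tested.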

How the data were processed

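Homogenates of knee joint sections from 8 strains were measured with 67 target mRNAs in 2 panels. The authors deposited the log10 signals of each assay replicate and, as normalized log10 values, the residuals of each target after multiple regression on the reference genes (*Gapdh*, *Hprt1* and *Actb* in the first panel, *Gapdh* and *Hprt1* in the second). The reference genes took 54.2% of the variance of log10 *Fgf18*, 61.1% for *Ihh* and 44.8% for *Pthlh*. The methods state that background was subtracted, and the files do not say whether before these values. Deposited strain averages and the authors' fold changes against C57BL/6J were not used, and 0 columns were left out. The number of beads behind a single signal was not used here.

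The normalized values were multiplied to the log2 scale and fitted per panel in limma 3.58.1 (R 4.3.3) with strain as the factor. Benjamini-Hochberg adjustment ran over 67 targets for the F test and over these and 28 pairs for contrasts, with a threshold of 0.05, and "called" means past it. Unless stated otherwise, limma's calls treat assay replicates as independent, which they are not if runs are repeated measures of single mice. Tests over strains were exact permutations of strain means (20 splits, or 40320 orders), two-sided, run with scipy 1.17.1, pandas 2.3.3 and numpy 2.4.6 under Python 3.11.15. Figures used matplotlib 3.10.9. Both steps were tested on simulated data. The simulated assay replicates were independent, so the effect of runs on the limma step was not tested.

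The 3 members were always named, with the 3 targets most like each by Pearson's r and called members of lists of cartilage, hypertrophic, growth factor and cell type marker mRNAs. Members and lists were chosen with earlier results of these data known. The pairs at the ends of each range were chosen after their values were seen. Alternatives were other normalizations, an offset of 10 on the signal, signals under 10 left out, a trended prior, the replicate block, the methods' Tukey test, fewer strains and each replicate number or strain left out. Chosen after seeing the data were averaged runs of 3 signals, and leaving out 1 LGXSM-35 replicate of the first panel and the SM/J signals of low *Gapdh*. The miRNAs were not analysed here.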

Additional observations from a re-analysis of the deposited data

Results flagged for a closer look

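On the deposited values *Pthlh* ran opposite ways in pairs of a healer and a non-healer. LG/J was above SM/J by 0.33 on the log2 scale while LGXSM-6 minus LGXSM-33 was -0.31, and the difference between these differences was 0.64 (SE 0.23, limma's adjusted p = 0.0412 over 201 such tests). With runs of 3 signals averaged its adjusted p was 0.314, and neither pair alone was called on the deposited values. As a ratio to the reference genes both pairs ran the same way, at -0.39 and -1.13, and the pair of lines was called (limma's adjusted p = 0.000463). That pair was also called without normalization, at -0.49 (limma's adjusted p = 0.0218). None of the 18 sets of 8 or 9 assay replicates held a value far from the rest by Dixon's criterion.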

How the results depend on the processing

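The strain effect of *Ihh* stayed past the threshold in every setting run, and that of *Fgf18* in all but averaged runs. That of *Pthlh*, 0.60, lost it with an offset of 10 on the signal (0.22), the replicate block (0.58), averaged runs (0.60), without replicate 1, 2, 7, 8, 10, 11 or 12, and without SM/J, LGXSM-6 or LGXSM-33. The range of strain means without 1 replicate number or 1 strain was 0.78 to 1.15 for *Ihh*, 0.32 to 0.70 for *Pthlh* and 1.09 to 1.33 for *Fgf18*. With runs averaged, 10 targets were called instead of 55 (48 to 56 without 1 replicate or strain), 4.42% of all pairs instead of 29.5%, 14.3% of *Ihh* pairs and 0% of *Pthlh* and *Fgf18* pairs, and *Fgf18* had a range of 1.11. Without normalization 45.9% of all pairs were called, 39.3% for *Pthlh* and 67.9% for *Fgf18*. *Pthlh* pairs, 7.14% called, went to 25% as a ratio, 3.57% with the offset or Tukey's test, 21.4% without the low SM/J signals, and 3.57% to 14.3% without 1 replicate. For other pairs that range was 53.6% to 67.9% for *Ihh*, 39.3% to 46.4% for *Fgf18* and 25.7% to 29.2% over all targets.

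In C57BL/6J minus MRL/MpJ the sign of *Ihh* turned as a ratio (0.73) and that of *Fgf18* without normalization (-0.77), and both were then called. In LG/J minus SM/J that of *Pthlh* turned as a ratio (-0.39), not called. That of *Fgf18* turned without the low SM/J signals, where LGXSM-33 was above SM/J by 1.29 and above LG/J by 1.28. Healers minus non-healers turned for *Pthlh* without normalization (0.11) or without the low SM/J signals (0.0398), with -0.19 to 0.11 without 1 strain, and for *Fgf18* without normalization (0.0849), with -0.58 to 0.0694, the latter without LGXSM-33. For *Ihh* it was 0.24 to 0.44 without 1 strain. The correlation of *Pthlh* and *Fgf18* passed the threshold only without normalization (0.85), and without 1 strain it was 0.13 to 0.66, beside -0.48 to 0.07 for *Ihh* and *Fgf18* and -0.35 to -0.05 for *Ihh* and *Pthlh*. The cause of these changes was not tested. The numbers share no stated mouse or plate. The replicate block left 54 targets called and took *Ihh* pairs to 57.1%. *Pthlh* gave no value with signals under 10 left out.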
